A study of Mus musculus with 4 samples.

Results

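Tubulin mRNA was examined in mouse liver during the resolution of acetaminophen (APAP)-induced acute liver injury (ALI). The 10 genes are the 5 alpha-tubulin genes Tuba1a, Tuba1b, Tuba1c, Tuba4a and Tuba8 and the 5 beta-tubulin genes Tubb2a, Tubb2b, Tubb4b, Tubb5 and Tubb6. They were taken by gene symbol from the 27027 entries of the deposited count table. Male C57BL/6J mice (strain C57BL/6 in the labels) received either 0.9% NaCl (control) or APAP at 300 mg/kg by intraperitoneal injection and were analysed 24 h or 48 h later. All mice had been fasted overnight and were 9 to 12 weeks old. Per group, liver RNA of 6 control mice or 7 APAP mice was pooled and yielded 1 library by massive analysis of cDNA ends (MACE), a 3′mRNA sequencing method. Every comparison therefore sets 1 library against 1 library. The 95% intervals given below are exact Clopper-Pearson intervals, cover counting error only and do not include differences between mice or between pools, so that no p-value is given.

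Microtubules are hollow polymers of alpha- and beta-tubulin dimers. In liver, they carry vesicles, bile canalicular transporters and secretory proteins within hepatocytes, and in dividing cells they form the mitotic spindle. Each tubulin class is encoded by several genes, whose protein products, called isotypes, are closely alike and differ mainly at the carboxy-terminal tail. Free tubulin dimers are known to promote the decay of tubulin mRNA, a feedback called autoregulation.

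The libraries held 4859661 (control, 24 h), 5191990 (control, 48 h), 5698778 (APAP, 24 h) and 4938164 (APAP, 48 h) reads assigned to genes. Reads were divided by size factors to give normalised counts, and a fold is the normalised count of the APAP library over that of the control of the same time. Of the 10 tubulin genes, 9 reached a mean of 20 normalised counts over the 4 libraries, as did 10066 of all entries, which are the genes called tested below, and Tuba8 did not. The control pool at 48 h stood apart in 1 respect: the 4 pancreas marker genes in the table together had 8.47 RPM there (reads scaled to the same total in each library) and 0 in each of the other 3 libraries. The part of this in the tubulin values was not tested.

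As the promoter regions of genes that differed between the libraries, the 250 bases before the RefSeq start (GRCm38.p6) are shown for 3 of the genes that were lower after APAP at 48 h, Tubb4b, Tubb2a and Tuba1c, and for Tubb5, which was higher at both times. The windows are chr2:25224703-25224952 on the minus strand (Tubb4b), chr13:34078009-34078258 on the minus strand (Tubb2a), chr15:99029641-99029890 on the plus strand (Tuba1c) and chr17:35838302-35838551 on the minus strand (Tubb5). Capitals mark, on either strand, the CCAAT box, the GC box GGGCGG, the E box CACGTG, the cAMP response element TGACGTCA and the TATA box TATAAA, which did not overlap one another.
Tubb4b: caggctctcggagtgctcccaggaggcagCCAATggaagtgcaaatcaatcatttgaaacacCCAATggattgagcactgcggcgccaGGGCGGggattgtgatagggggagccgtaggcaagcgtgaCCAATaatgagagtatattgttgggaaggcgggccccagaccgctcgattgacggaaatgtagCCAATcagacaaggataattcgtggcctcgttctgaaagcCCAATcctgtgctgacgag
Tubb2a: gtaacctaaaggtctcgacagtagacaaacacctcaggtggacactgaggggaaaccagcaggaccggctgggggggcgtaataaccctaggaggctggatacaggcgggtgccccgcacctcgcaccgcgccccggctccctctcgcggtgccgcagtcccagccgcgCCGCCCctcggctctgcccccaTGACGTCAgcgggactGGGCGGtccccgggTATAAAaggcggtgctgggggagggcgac
Tuba1c: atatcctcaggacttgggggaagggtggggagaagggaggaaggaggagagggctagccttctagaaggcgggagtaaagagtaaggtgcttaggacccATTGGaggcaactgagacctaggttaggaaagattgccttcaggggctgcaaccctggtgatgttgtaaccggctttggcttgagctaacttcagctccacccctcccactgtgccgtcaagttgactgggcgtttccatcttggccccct
Tubb5: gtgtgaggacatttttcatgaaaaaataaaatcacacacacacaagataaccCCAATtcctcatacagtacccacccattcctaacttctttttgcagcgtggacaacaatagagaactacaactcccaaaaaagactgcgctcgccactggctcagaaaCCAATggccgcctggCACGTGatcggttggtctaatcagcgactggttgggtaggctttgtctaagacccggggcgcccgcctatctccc
The Tubb4b window held 1 GC box and 5 CCAAT boxes, a number of CCAAT boxes reached or exceeded in 0.213% of the 32851 windows of the same length in the table. Tubb5 held 2 CCAAT boxes and 1 E box, whereas Tuba1c held 1 CCAAT box, written here as its reverse complement. In the Tubb2a window, 1 TATA box, 1 cAMP response element and 2 GC boxes were found. At least 1 CCAAT box was present in 33.8% of all windows, a GC box in 32.7%, a TATA box in 12.4%, an E box in 6.02% and the cAMP response element in 1.55%. The AP-1 motif TGANTCA, present in 6.75% of all windows, was found in none of the 8 tubulin windows analysed. These matches describe the letters of the windows and show no binding. The windows of Tubb2b and Tubb6 were not analysed here, so that the motif counts say nothing about these genes.

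Tubulin mRNA was most abundant in the pools taken at 24 h, with or without APAP. The 10 genes together gave 4457 reads (control, 24 h), 3179 reads (control, 48 h), 5657 reads (APAP, 24 h) and 3279 reads (APAP, 48 h). This corresponded to 917, 612, 993 and 664 RPM, respectively. Hence, the summed tubulin reads separated the 24 h pools from the 48 h pools and not the APAP pools from the control pools. Because MACE reads come from 1 end of a transcript, RPM values were not divided by transcript length and were compared between genes as numbers of transcript ends. In bulk RNA, fewer cells of a type and less RNA per cell cannot be told apart.

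**Figure D1:**
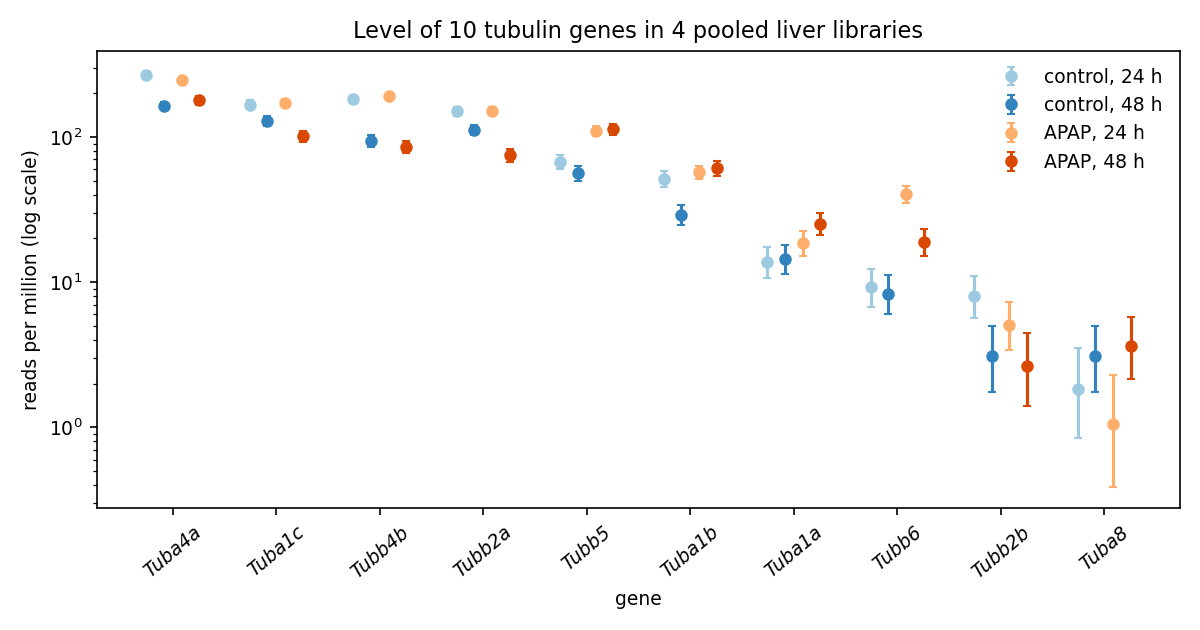
RPM (log scale) of the 10 tubulin genes in the 4 pooled libraries; points are single libraries and bars are 95% exact intervals for counting error. Tuba4a was highest in every library, and Tubb6 stood at 40.4 RPM in the APAP pool at 24 h against 9.26 RPM in the control.

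In the control pools, 4 genes supplied most of the tubulin reads. Their mean over both control pools was 215 RPM for Tuba4a, 148 RPM for Tuba1c, 138 RPM for Tubb4b and 131 RPM for Tubb2a. Tuba4a encodes an alpha-tubulin that lacks the carboxy-terminal tyrosine of most other isotypes, and Tubb4b encodes a widely expressed beta-tubulin that is also used in cilia. Among these genes the order was not the same in both control pools, since Tubb4b lay above Tuba1c at 24 h with 182 against 167 RPM and below it at 48 h with 93.6 against 129 RPM. Tubb5, the main beta-tubulin of most proliferating cells, followed at 61.5 RPM and the broadly expressed Tuba1b at 40.2 RPM. Tuba1a, best known from developing neurons, had 14.1 RPM, Tubb6 8.77 RPM and the brain-enriched Tubb2b 5.55 RPM. The lowest was Tuba8 at 2.47 RPM, and the counting intervals of Tuba8 and Tubb2b overlapped in the control pool at 48 h, where both had 16 reads.

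At 24 h after APAP, Tubb6 was the single tubulin gene that was at least 2-fold higher and also reached the mean of 20 normalised counts. Of all 10066 genes tested, 3.93% were at least 2-fold higher at that time. Tubb6, a beta-tubulin isotype of low abundance in most tissues, had 45 (control, 24 h), 43 (control, 48 h), 230 (APAP, 24 h) and 93 (APAP, 48 h) reads, and this order is kept for all values of 4 libraries below. Both APAP pools lay above both control pools, and the APAP pool at 24 h was the highest. The fold was 3.83 at 24 h (2.77 to 5.40) and 1.89 at 48 h (1.30 to 2.78). At 24 h, 99.2% of all tested genes had a lower fold than Tubb6, and at 48 h 95.3%. The fold at 48 h was 0.494 times that at 24 h (0.297 to 0.825). A threshold of 5-fold, the one applied in the study, was not reached by any tubulin gene at either time, and 0.417% (24 h) and 0.328% (48 h) of all genes tested reached it upwards.

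Tubb5 was higher after APAP at both times. Its reads were 325, 291, 630 and 557. Both APAP pools were above both control pools, with a fold of 1.45 at 24 h (1.27 to 1.67) and 1.67 at 48 h (1.45 to 1.94). Tubb5 and Tubb6 were the 2 tubulin genes whose interval lay above 1 at both times, which was the case for 6.5% of all genes tested.

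Tuba1b and Tuba1a, neighbouring genes on chromosome 15, had intervals above 1 at 48 h only. Tuba1b had 249, 151, 325 and 300 reads. The control pool at 48 h was the lowest of the 4, and the normalised count was much the same in the other 3 libraries at 283, 277 and 281. The Tuba1b fold was 0.978 at 24 h (0.827 to 1.16) and 1.74 at 48 h (1.42 to 2.13). Set against the control pool of the other time point, the fold at 48 h was 0.994, so that its direction depended on the control pool used. The fold at 24 h was 1.11 with library totals and 1.71 against the other control pool. With the size factors and the controls of the same time, the fold at 48 h was 1.78 times that at 24 h (1.36 to 2.31). Tuba1a had 67, 75, 106 and 125 reads, with both APAP pools above both control pools. Its fold was 1.19 at 24 h (0.865 to 1.63) and 1.46 at 48 h (1.09 to 1.97), and the ratio of these folds, 1.23, held 1 within its interval (0.791 to 1.91).

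With these size factors, the 4 tubulin genes with the highest control level had folds below 1 at both times, and 3 of them, Tubb2a, Tuba1c and Tubb4b, lay further below 1 at 48 h. Tubb2a, which encodes a beta-tubulin that is abundant in neurons, had 729, 580, 859 and 368 reads, and the APAP pool at 48 h was the lowest. Its fold was 0.883 at 24 h (0.799 to 0.976) and 0.555 at 48 h (0.486 to 0.633), the latter 1.80-fold lower than the control. Tuba1c, a widely expressed alpha-tubulin, had 810, 671, 979 and 500 reads. Again the APAP pool at 48 h was the lowest, with a fold of 0.906 at 24 h (0.824 to 0.995) and 0.652 at 48 h (0.579 to 0.733). For both genes the direction at 24 h depended on the scaling: with library totals the fold was 1.005 for Tubb2a and 1.03 for Tuba1c, whereas at 48 h both stayed below 1 at 0.667 and 0.783.

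Tubb4b and Tuba4a differed mainly between the time points. Tubb4b had 886, 486, 1086 and 424 reads, so that both 48 h pools lay below both 24 h pools. The fold was 0.918 at 24 h (0.840 to 1.005) and 0.763 at 48 h (0.668 to 0.871). With library totals, the Tubb4b fold was 1.05 at 24 h and 0.917 at 48 h. Against the control pool of the other time point, it was 1.78 at 24 h and 0.395 at 48 h. Tuba4a had 1298, 850, 1407 and 881 reads, again with both 48 h pools below both 24 h pools. Its fold was 0.812 at 24 h (0.753 to 0.876) and 0.906 at 48 h (0.824 to 0.997), and the latter turned to 1.09 with library totals. Against the control pool of the other time point, the Tuba4a fold at 24 h was 1.31.

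Tubb2b and Tuba8 were measured with few reads. Tubb2b had 39, 16, 29 and 13 reads and a fold of 0.557 at 24 h (0.332 to 0.924) and 0.711 at 48 h (0.314 to 1.58), the former turning to 1.44 against the other control pool. Tuba8 is best known from muscle and testis. It had 9, 16, 6 and 18 reads and a fold of 0.499 at 24 h (0.146 to 1.57) and 0.984 at 48 h (0.474 to 2.06). The interval of Tuba8 at 24 h held 1, so that its 2-fold lower value could not be told from no difference at this depth. Of all genes tested, 4.82% were at least 2-fold lower at 24 h.

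**Figure D2:**
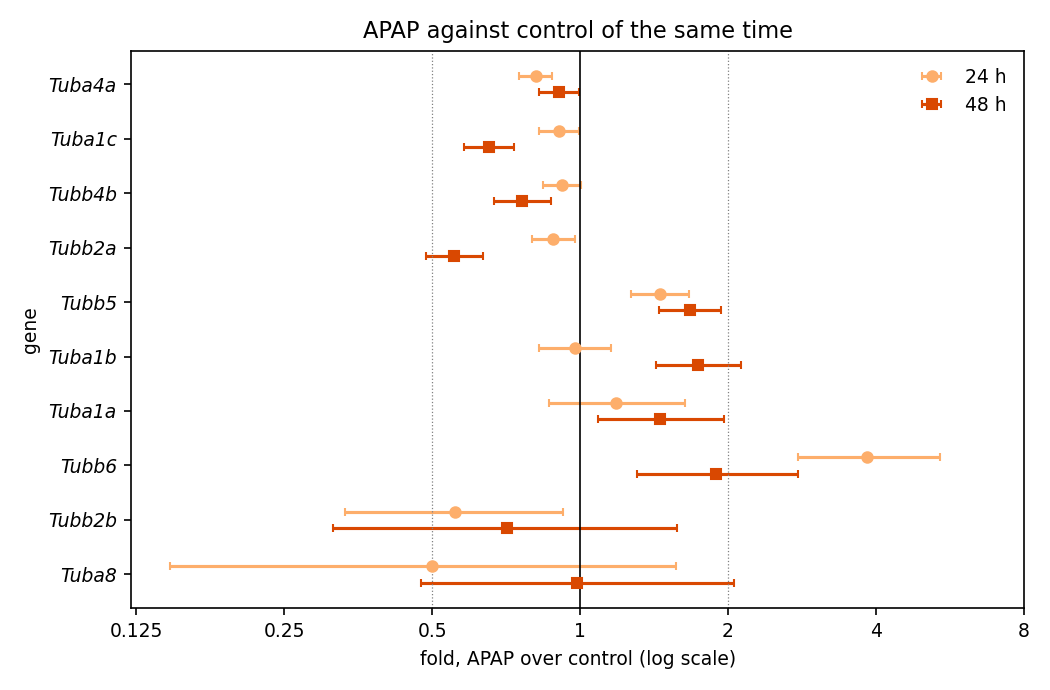
Fold of APAP over control (log scale) at 24 h (circles) and 48 h (squares) for the 10 tubulin genes, ordered by their control level from top to bottom; bars are 95% exact intervals for counting error and dotted lines mark 2-fold. The 4 genes with the highest control level lay below 1 at both times with the size factors used, whereas with library totals Tubb2a, Tuba1c and Tubb4b at 24 h and Tuba4a at 48 h lay above 1, and Tubb6 at 24 h was the single point above 2.

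As a group, the tubulin genes did not all differ in 1 direction after APAP. At 24 h the interval lay above 1 for 2 genes and under 1 for 4 genes, compared with 16.5% and 20.9% of all genes tested. Intervals are narrower for genes with more reads, and the genes tested were not matched to the tubulin genes in this. At 48 h it lay above 1 for 4 genes and under 1 for 4 genes, and none was at least 2-fold higher or lower. With library totals, however, 3 genes, Tubb5, Tubb6 and Tuba1b, were at least 2-fold higher at 48 h. Against the control pool of the other time point, Tubb2a (0.416), Tubb4b (0.395) and Tubb2b (0.275) were at least 2-fold lower at 48 h. With both control pools summed, this held for Tubb2a (0.478) and Tubb2b (0.402). Of all genes tested at 48 h, 14.8% had an interval above 1 and 21.5% under 1, while 3.86% were at least 2-fold higher and 4.83% at least 2-fold lower. The median log2 fold of the 10 genes was -0.13 at 24 h and -0.08 at 48 h, against 0.00 and -0.03 for all genes tested. With library totals the median of the 10 genes lay above 0 at both times, as did that of all genes tested (0.19 and 0.23). Beyond the counting error, the fold was lower at 48 h than at 24 h for 4 genes, Tuba1c, Tubb2a, Tubb4b and Tubb6, and higher for 1, Tuba1b. The genes with an interval under 1 at both times were Tuba1c, Tuba4a and Tubb2a, a pattern found in 13.1% of all genes tested. The summed tubulin fold was 0.951 at 24 h (0.914 to 0.989) and 0.902 at 48 h (0.859 to 0.947). Both sums turned to 1.08 when the reads were scaled to library totals, because this scaling raised log2 folds by 0.19 at 24 h and 0.27 at 48 h. It also moved the share of higher genes among all those called at 2-fold from 44.9% to 68.2% at 24 h and from 44.5% to 73.0% at 48 h.

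When the genes were grouped by control level, the sums differed in direction. The 4 genes with the highest control level summed to 3723, 2587, 4331 and 2173 reads. Their fold was 0.872 at 24 h (0.834 to 0.911) and 0.735 at 48 h (0.693 to 0.778). The other 6 tubulin genes summed to 734, 592, 1326 and 1106 reads, with a fold of 1.35 (1.24 to 1.48) and 1.63 (1.48 to 1.81). The lowest 2 of these 6 genes, Tubb2b and Tuba8, were themselves not higher. This grouping was made after the values had been seen and is a description only. It ranked the genes by the control reads that are also the denominators of the folds.

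Composition within a tubulin class is independent of the scaling between libraries. Among the beta-tubulin reads, the share of Tubb5 was 16.1% (24 h) and 20.6% (48 h) without APAP, compared with 22.2% (24 h) and 38.3% (48 h) after APAP. Tubb5 thus supplied the most beta-tubulin reads in the APAP pool at 48 h, with an interval of 35.8% to 40.8%. Tubb4b gave 43.8% and 34.3% without APAP, compared with 38.3% and 29.1% after APAP. The Tubb2a share was lower in both APAP pools, at 30.3% and 25.3%, than in the control pools, at 36.0% and 41.0%. Tubb6 held 8.12% at 24 h and 6.39% at 48 h, against 2.22% and 3.04% in the controls, and the intervals of the APAP and control pools did not overlap.

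The alpha-tubulin reads were more even between libraries. Tuba4a held 53.3% and 48.2% without APAP, compared with 49.8% and 48.3% after APAP. Tuba1c was lowest in the APAP pool at 48 h, with 27.4% against 33.3%, 38.1% and 34.7%. In the same pool Tuba1b held 16.4% and Tuba1a 6.85%, compared with 8.56% to 11.5% and 2.75% to 4.25% in the other 3 libraries. Beta-tubulin genes supplied 45.4%, 44.5%, 50.1% and 44.4% of all tubulin reads in the usual order.

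**Figure D3:**
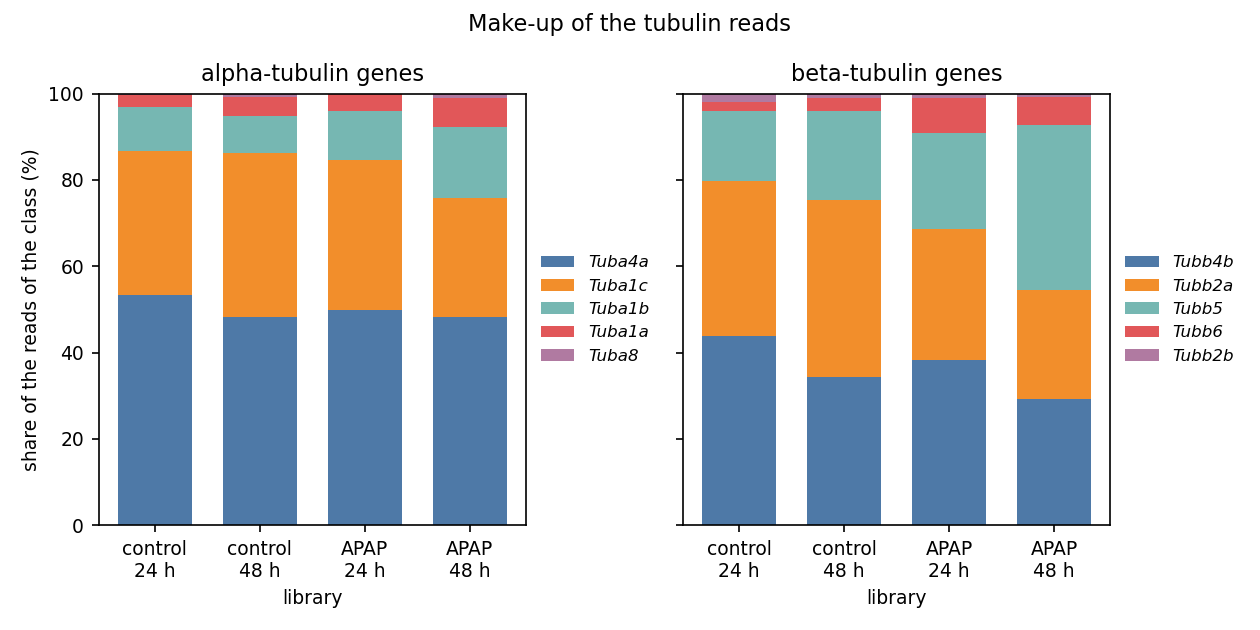
Share (%) of the alpha-tubulin reads (left) and the beta-tubulin reads (right) supplied by each gene in the 4 pooled libraries. In the APAP pool at 48 h, Tubb5 supplied 38.3% and Tubb4b 29.1% of the beta-tubulin reads, the highest share of Tubb5 and the lowest share of Tubb4b among the 4 libraries.

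Ratios between pairs of genes of the same library also do not depend on scaling. For every 100 Tubb4b reads there were 36.7 (24 h) and 59.9 (48 h) Tubb5 reads without APAP, against 58.0 and 131 after APAP. The APAP pool at 24 h and the control pool at 48 h were thus alike in this ratio. For Tubb6, the numbers per 100 Tubb4b reads were 5.08 and 8.85 without APAP, against 21.2 and 21.9 after APAP, and the intervals of control and APAP pools did not overlap. Per 100 Tuba1c reads, Tuba1b had 30.7 and 22.5 reads without APAP, against 33.2 and 60.0 after APAP. Per 100 Tuba4a reads, the Tuba1b reads were 19.2 and 17.8 without APAP, against 23.1 and 34.1 after APAP. The ratio of Tubb2a to Tubb4b did not separate APAP from control, since it was 82.3 and 119 per 100 without APAP, against 79.1 and 86.8 after APAP, with the control pool at 48 h apart from the other 3. These 5 pairs were chosen after the values had been seen.

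The difference between the time points was present without APAP. The control pool at 48 h had a summed tubulin fold of 0.673 (0.643 to 0.704) against the control pool at 24 h, that is 1.49-fold less. Among the single genes, 7 had an interval under 1 and none above 1 in this comparison, whereas 9.17% of all genes tested lay under 1 and 11.9% above. These shares are not matched for the number of reads, on which the width of an interval depends. The fold was 0.387 (0.202 to 0.709) for Tubb2b, 0.517 (0.462 to 0.579) for Tubb4b, 0.572 (0.464 to 0.703) for Tuba1b and 0.618 (0.566 to 0.674) for Tuba4a. Only Tubb2b was at least 2-fold lower among the tubulin genes, as were 1.21% of all genes tested. The median log2 fold of the 10 genes was -0.39, against 0.01 for all genes tested.

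In the APAP pools, which share no library with the control pools, the summed fold from 24 h to 48 h was 0.638 (0.611 to 0.666). Here 6 genes had an interval under 1 and 1, Tuba8, above 1, compared with 14.9% and 13.2% of all genes tested. The fold was 0.430 (0.383 to 0.481) for Tubb4b, 0.472 (0.416 to 0.533) for Tubb2a, 0.562 (0.504 to 0.627) for Tuba1c and 0.689 (0.633 to 0.750) for Tuba4a. At least 2-fold lower were 4 tubulin genes, Tubb4b, Tubb6, Tubb2a and Tubb2b, compared with 2.03% of all genes tested, and Tuba8 was 3.30-fold higher (1.26 to 10.2), compared with 1.47% that were at least 2-fold higher. In both the control and the APAP pools, 5 tubulin genes had an interval under 1, namely Tuba1c, Tuba4a, Tubb2a, Tubb2b and Tubb4b, which was found for 2.78% of all genes tested. The summed tubulin fold of APAP over control at 48 h was 0.949 times that at 24 h (0.891 to 1.01). The difference between the control pools was thus larger than the summed difference between APAP and control at either time. With 1 pool per group, the time after injection and the pool of mice cannot be told apart.

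**Figure D4:**
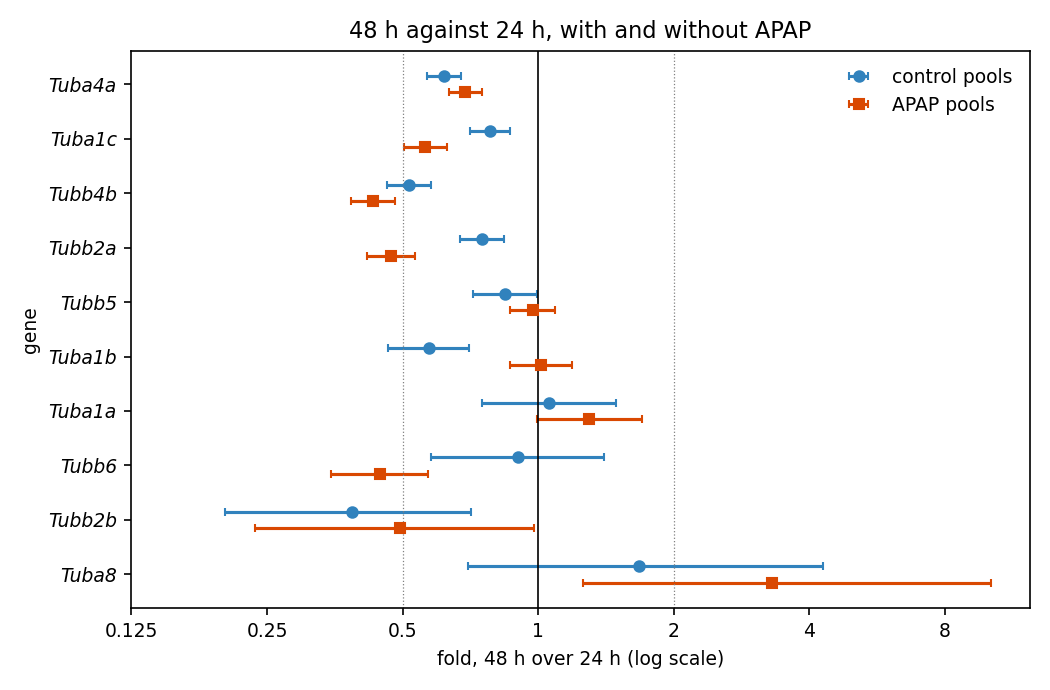
Fold of the 48 h pool over the 24 h pool (log scale) for the 10 tubulin genes in the control pools (circles) and the APAP pools (squares); bars are 95% exact intervals for counting error and dotted lines mark 2-fold. Tuba4a, Tuba1c, Tubb4b, Tubb2a and Tubb2b lay under 1 in both, while the interval lay under 1 for Tuba1b and Tubb5 in the control pools and for Tubb6 in the APAP pools.

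Some tubulin genes share their 3′ ends, from which MACE reads originate. The annotation (GENCODE M21, GRCm38) places Tuba1b at chr15:98931425-98934565 and Tuba1a at chr15:98949837-98953703, both on the minus strand, and Tubb2a at chr13:34074274-34078007 next to Tubb2b at chr13:34126748-34130466, also on the minus strand. Within the last 300 bases of the annotated transcripts, 5 genes resembled another gene or pseudogene with 95% identity or more over 100 bases or more, namely Tuba1a, Tuba1b, Tuba1c, Tubb2a and Tubb4b. The end of Tuba1a matched Tuba1b over 103 bases at 99.0% identity, and that of Tuba1b matched Tuba1a over 143 bases at 99.3%. Tubb2a matched Tubb2b over 107 bases at 97.2%. The counts of these pairs are uncertain to the extent that reads could be split between them. Tubb4b matched the pseudogenes Tubb4b-ps1 (6, 5, 9 and 5 reads) and Tubb4b-ps2 (26, 7, 27 and 6 reads). The reads of Tubb4b-ps2 differed between the time points in the same direction as those of Tubb4b. No such match was found for Tubb5, Tubb6 or Tuba4a. In the annotation, Gm49450 overlapped Tuba1a and Tuba1b on the same strand, and Stk16 overlapped Tuba4a and Fam166a overlapped Tubb4b on the opposite strand. Whether reads were counted by strand is not given in the sources used here.

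The other tubulin genes were close to the limit of detection except for Tubg1. Tubg1, the gamma-tubulin that nucleates microtubules, had 124, 139, 147 and 159 reads and a fold of 0.888 at 24 h and 1.0003 at 48 h. Tubd1 had 9 to 21 reads, Tubb4a 0 to 6, Tubb3 0 to 4, Tubg2 1 to 5, Tube1 1 to 4, and Tubal3 and Tubb1 0 to 1. Tubb3 is the beta-tubulin of neurons and Tubb1 that of platelets and megakaryocytes. Of the gamma-tubulin ring complex and centrosome list, 7 of 11 genes were tested. Nedd1, which recruits the complex, was the 1 gene at least 2-fold higher at 24 h (2.11), as were 3.93% of all genes tested. It had 11, 27, 31 and 28 reads.

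None of the 15 genes of the CCT chaperonin, which folds tubulin and actin, and of prefoldin was at least 2-fold higher or lower, and their median log2 fold was 0.01 at 24 h and -0.14 at 48 h. Among 7 tubulin folding cofactors, Tbcel was 0.386-fold at 24 h and Arl2 0.496-fold at 48 h. Both tested genes of tubulin mRNA autoregulation, Scaper and Cnot11, had intervals holding 1 at both times. None of 10 tested tubulin modifying enzymes and none of 28 transport motor genes was at least 2-fold higher or lower at either time. Of 19 tested genes for microtubule binding, dynamics and severing, Clasp2 was lower at 24 h (0.468) and Camsap3, which caps minus ends, at 48 h (0.350). Clasp2 had 40, 25, 25 and 44 reads and a fold of 1.54 at 48 h. Of all genes tested, 4.82% at 24 h and 4.83% at 48 h were at least 2-fold lower.

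Actin and intermediate filament genes differed from this. Of 19 tested genes, 8 at 24 h and 10 at 48 h were higher by 2-fold or more, compared with 3.93% and 3.86% of all genes tested, and 1, Arpc3, was lower at 24 h (0.472), with a median log2 fold of 0.78 and 1.07. Krt8, a hepatocyte keratin, was 3.45-fold and 2.30-fold higher, the actin crosslinker Flna 2.57-fold and 4.26-fold, and Capg, an actin-capping protein of macrophages, 3.08-fold and 14.9-fold. Vim, the mesenchymal intermediate filament, was 1.97-fold and 3.78-fold higher. The median of the tubulin genes lay below 0 at both times with the size factors used and above 0 at both times with library totals.

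Spindle genes gave few reads in all 4 libraries. Of 25 genes of the mitosis and spindle list, 1 was tested, Kif11, with 50, 59, 80 and 78 reads. The list summed to 22.0, 30.6, 35.6 and 48.2 RPM, with 8, 3, 5 and 2 genes at 0 reads. With the size factors, its summed fold was 1.42 at 24 h and 1.31 at 48 h. Mki67, a marker of cycling cells, had 1, 4, 1 and 12 reads and Top2a 1, 4, 3 and 10. Other members of the list differed in which library was highest, with 7, 8, 30 and 21 reads for Aurka, 0, 8, 1 and 2 for Plk1 and 13, 18, 10 and 17 for Tpx2. From 24 h to 48 h in the APAP pools, the intervals of 3 tubulin genes held 1. The fold was 0.973 (0.867 to 1.09) for Tubb5, 1.02 (0.866 to 1.19) for Tuba1b and 1.30 (0.994 to 1.70) for Tuba1a. Of the other tubulin genes, 6 had an interval under 1 and 1 above 1. A relation between spindle and tubulin genes was not tested.

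Marker genes of other cell types differed between the same libraries. The 12 myeloid markers summed to 141, 147, 267 and 467 RPM and the 8 stellate cell and fibroblast markers to 89.3, 93.2, 129 and 241 RPM, both highest in the APAP pool at 48 h. The 6 cholangiocyte markers summed to 25.9, 32.9, 81.9 and 66.2 RPM, highest in the APAP pool at 24 h. The 2 tested genes of this list were higher after APAP, Sox9 (3.97 at 24 h and 1.79 at 48 h) and Spp1 (1.90 and 2.14), while Krt19 had 6, 13, 8 and 8 reads, Krt7 8, 8, 15 and 2, Epcam 2, 10, 5 and 7, and Cftr 0, 2, 0 and 0. The 7 endothelial markers summed to 133, 144, 167 and 189 RPM. RPM values are scaled to library totals. With the size factors, the summed fold at 24 h and 48 h was 1.10 and 1.09 for endothelial and 0.876 and 0.983 for hepatocyte markers. It was 1.66 and 2.65 for myeloid, 1.27 and 2.15 for stellate and fibroblast, and 2.78 and 1.67 for cholangiocyte markers. Of the 10 tested myeloid markers, 3 at 24 h and 8 at 48 h were at least 2-fold higher, among them Lyz2 (3.42 and 5.39) and Cd14 (11.5 and 2.08). Of the 8 stellate and fibroblast markers it was 1 at 24 h, Acta2, and 4 at 48 h (Acta2 2.16 and 13.6), where 3.93% and 3.86% of all genes tested were at least 2-fold higher. The 7 hepatocyte markers summed to 75212, 76952, 74997 and 90954 RPM. This was the highest of all marker lists in each library, as the labelled tissue implies. Their median fold was 0.873 at 24 h and 0.968 at 48 h. Of these 7, 1 was at least 2-fold lower at 48 h, Cyp2e1 (0.623 and 0.369), and none at 24 h. Of all genes tested, 4.82% at 24 h and 4.83% at 48 h were at least 2-fold lower. Markers of lymphocytes (2.11 to 3.08 RPM), platelets (3.50 to 9.72 RPM) and mesothelium (0.810 to 2.89 RPM) were near detection. The part of these cell types in the tubulin values was not tested.

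In a search of 6915 genes, each averaging 50 normalised counts or more, those closest to the summed tubulins in 3 log2 differences, APAP against control at 24 h and at 48 h and control at 48 h against control at 24 h, were Kat6a, Gas5, Gm13092, Ell2 and Nagpa, with Euclidean distances of 0.061 to 0.14. Gas5, for instance, had folds of 0.882 at 24 h, 0.920 at 48 h and 0.661 between the control pools. Kat6a, Gm13092 and Nagpa had 43 to 77 reads per library. The distances and the ranking take no account of counting error.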

How the data were processed

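Liver RNA pools were sequenced by MACE in 1 library per group. Sex, age, fasting and pool sizes are taken from the study's methods. According to the study's methods, the authors removed duplicate reads by unique molecular identifiers, trimmed with cutadapt, clipped poly(A) tails and mapped to mm10, and the deposited counts are HTSeq reads per gene. Per the labels, HTSeq and DESeq2 were used, and their versions are not given in the sources used here. The table also holds 4 columns of normalised values and 6 of the authors' comparisons (log2 ratios, p-values and FDR), which were not used. Of 27027 entries, 26957 matched GENCODE M21. None of the 2430 entries that join several identifiers held a gene of the summed tubulin set. Among the other tubulin genes, Tubb3 had such a joined entry, so that its reads cannot be assigned to Tubb3 alone.

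Counts were divided by DESeq2 1.42.0 median-of-ratios size factors (R 4.3.3), which were 0.880 (control, 24 h), 0.933 (control, 48 h), 1.17 (APAP, 24 h) and 1.07 (APAP, 48 h). Folds, exact 95% intervals and figures were computed with Python 3.11.15, numpy 2.4.6, scipy 1.17.1, pandas 2.3.3 and matplotlib 3.10.9. Intervals and floors cover counting error only. The ratio of 2 folds has an exact conditional interval (noncentral hypergeometric). Counts of 3 reads or fewer were set to 3 (0.526 to 0.617 RPM), with no fold where both libraries were at or below it. With 1 library per group, neither the DESeq2 nor the edgeR test was run. Genes were tested, that is compared with the 2-fold threshold, from a mean of 20 normalised counts. The 3′ ends were compared with blastn 2.17.0. Promoter windows were taken from RefSeq (GRCm38.p6) for 8 of 10 genes by symbol. The computations of size factors, folds, their intervals and the interval of the ratio of 2 folds were tested on simulated counts. The other steps were not. Alternatives were edgeR 4.0.16 TMM factors, library totals, other floors, a pseudocount of 1, other control pools and other thresholds.

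The 10 genes and the gene lists were chosen with earlier results of these data known. Named are all 10 genes, other tubulins with reads, at most 4 genes per list with the largest change of at least 2-fold, and the 5 genes nearest to the summed tubulins. Genes named beyond this, such as Kif11, Mki67, Top2a, Scaper, Cnot11, Aurka, Plk1, Tpx2, Arpc3, Krt19, Krt7, Epcam, Cftr and the pseudogenes, were chosen after their values were seen.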

Additional observations from a re-analysis of the deposited data

Results flagged for a closer look

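For Tuba1b, the fold of APAP over control lay on different sides of 1 at the 2 time points, at 0.978 at 24 h, whose interval held 1, and 1.74 at 48 h, a ratio of folds of 1.78 with a counting interval of 1.36 to 2.31. Opposite directions are not shown by this, since the fold at 24 h was 1.11 with library totals and 1.71 and 1.25 with the other and both control pools. With 1 pool per group, the difference was not tested against the spread between mice or pools. The control pool at 48 h had 151 reads and was the lowest of the 4 libraries, and the fold between the APAP pools was 1.02.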

How the results depend on the processing

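No paired analysis was possible because each group has 1 library, and for the same reason no library could be left out. The summed tubulin fold at 24 h turned from 0.951 to 1.08 with library totals, to 1.41 with the control pool of the other time and to 1.14 with both control pools summed. At 48 h it turned from 0.902 to 1.08 with library totals and moved to 0.607 and 0.730 with the other and with both control pools. The change of the summed fold between the times moved from 0.949 to 0.429 and 0.638 with the other and both control pools, by construction, since the control pools themselves differed by 0.673. The number of tubulin genes at least 2-fold higher was 1 at 24 h and 0 at a threshold of 5-fold, and 0 at 48 h but 3 with library totals and 3 at a threshold of 1.5-fold. With library totals, 1 gene each of the modifying enzymes (at both times), of the microtubule binding genes and of the motors (at 24 h) became at least 2-fold higher. At 24 h, Tuba1c turned to 1.03, 1.16 and 1.02 and Tubb2a to 1.005, 1.18 and 1.01 with library totals, the other and both control pools, Tuba4a to 1.31 and 1.01 with the other and both control pools, and Tubb2b to 1.44 with the other control pool. Tubb4b went to 1.05, 1.78 and 1.22 and Tuba1b to 1.11, 1.71 and 1.25 with library totals, the other and both control pools, from values whose intervals held 1. At 48 h, Tuba1b turned to 0.994 with the other control pool and Tuba4a to 1.09 with library totals. With the other control pool, Tubb4b moved from 0.763 to 0.395, Tuba4a from 0.906 to 0.560 and Tubb2b from 0.711 to 0.275. Tubb2a moved from 0.555 to 0.416 with the other control pool and to 0.478 with both. Tuba1c moved from 0.652 to 0.509 with the other control pool and to 0.574 with both. TMM factors, other floors, the pseudocount, leaving out Tuba1a, Tuba1b and Tuba1c and, chosen after seeing the data, leaving out Tubb6 kept the direction of all summed values. A floor of 10 reads gave no value for Tuba8 at 24 h. Depth limits Tuba8 and Tubb2b most, with 6 to 39 reads per library.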
